A study of Mus musculus with 6 samples.

Results

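The transcription factor genes described here are those that give and keep mesenchymal identity in fibroblasts: the Snail genes Snai1 and Snai2, the Twist genes Twist1 and Twist2, the zinc finger E-box homeobox genes Zeb1 and Zeb2, and the mesodermal factors Prrx1, Tcf21, Osr1 and Gata6. They were listed by name, and 9 of the 10 have a row among the 14831 genes of the count table. No row carries the symbol or the Ensembl identifier of Tcf21, whose expression was not analysed here. All 9 passed the filter on low counts and were tested. RNA was sequenced from 6 libraries of immortalized pancreatic fibroblasts of mixed strain, 3 with the genotype label WT and 3 with the genotype label Gli2-/-;Gli3-/-, each from its own confluent culture well in serum-containing medium. According to the study's methods, such lines were grown out of the pancreas of adult mice with floxed Gli alleles. After immortalization they were infected with a GFP adenovirus and a dsRed lentivirus (controls) or with GFP and Cre adenoviruses (knockouts), and infected cells were sorted. The knockout fibroblasts also carry a tdTomato reporter. The labels name no separate lines or animals within a group, so p-values measure the spread between wells and libraries.

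The labels were set beside the counts of the targeted genes. Gli2 had a mean of 27.1 ± 1.19 CPM (gene counts scaled to library size, SD, n = 3) in WT-labelled libraries and 56.2 ± 1.96 CPM in KO-labelled ones, and Gli3 had 12.5 ± 0.0440 and 40.8 ± 1.64 CPM. Both were higher in every library labelled KO, where a loss of their whole RNA would make them lower. The groups are named by their labels only, and each direction given here rests on those labels, whose correctness was not tested here. According to the study's methods, recombination in the sorted cells was checked with qPCR and western blots, which were not examined here. Counts were summed over whole genes, exons outside the floxed parts included, so they do not measure the deletion itself. Ptch1 and Gli1, target genes of Hedgehog signalling, ran the other way, with means of 235 and 1.31 CPM under the WT label and 81.8 and 0.249 CPM under the KO label (log2 fold changes -1.53 and -2.40, edgeR adjusted p = 2.16e-11 and 2.30e-05). They were named after their values were seen. Gli1 was low in both groups, where the floor for a gene was between 0.0720 and 0.0957 CPM. Library totals ranged from 31728420 to 41035931 counts. Of 8 fibroblast markers listed, Col1a1, Col1a2, Col3a1, Pdgfra, Pdgfrb, Dcn and Vim were at 162 CPM or more in the mean of each group, while Thy1 was at 0.0525 and 0.390 CPM. Of the 7 markers tested, 4 were lower in KO-labelled libraries by at least 1.5-fold at an edgeR adjusted p below 0.05, and 0 were higher. By that rule 6.10% of all genes were lower and 11.6% higher. Fewer cells of a type and less RNA per cell cannot be told apart in such bulk libraries.

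Snail and Zeb proteins bind the E-box sequence CACCTG through zinc fingers and repress epithelial genes such as Cdh1, while Twist proteins bind E-boxes as basic helix-loop-helix dimers. These families drive the epithelial-mesenchymal transition in epithelia and are a standing part of the fibroblast programme. Prrx1, Osr1 and Tcf21 mark mesenchymal progenitors of the embryo and the fibroblasts that descend from them, and Gata6 is a zinc finger factor of endoderm and mesoderm.

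Several members are close relatives, and the sequences below are shown because they bear on whether reads of relatives can be told apart. The first 27 coding bases of Snai1 and Snai2, which encode the SNAG motif that recruits co-repressors, differ at 2 positions, given in capitals (GENCODE M21, sense strand, 5′ to 3′).
Snai1: atgccgcgctccttcctggtcaGgaaG
Snai2: atgccgcgctccttcctggtcaAgaaA
A stretch of 156 coding bases around the helix-loop-helix region, from coding base 337 of Twist1 and 199 of Twist2, differs at 18 positions, again in capitals, and is 88.5% identical.
Twist1: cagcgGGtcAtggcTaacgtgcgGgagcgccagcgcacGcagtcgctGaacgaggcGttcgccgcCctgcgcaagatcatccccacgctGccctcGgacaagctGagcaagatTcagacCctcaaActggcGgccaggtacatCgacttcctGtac
Twist2: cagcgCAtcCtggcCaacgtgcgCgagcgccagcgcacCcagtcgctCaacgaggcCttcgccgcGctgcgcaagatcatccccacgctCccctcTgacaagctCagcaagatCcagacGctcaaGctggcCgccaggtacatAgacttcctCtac
Between the transcripts with the longest coding sequence, the longest exact match was 23 bases in each of the pairs Snai1 and Snai2, Twist1 and Twist2, and Zeb1 and Zeb2, and 0% of 31-base words were shared. Counts of these relatives were treated as separate measurements.

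Of the 9 members tested, 2 were differentially expressed, Prrx1 higher and Osr1 lower in KO-labelled libraries, by the rule that edgeR's quasi-likelihood test gives a Benjamini-Hochberg adjusted p below 0.05 and the change reaches 1.5-fold. This is 22.2% of the members, where 17.7% of all 14289 genes tested were called, 11.6% higher and 6.10% lower. None of the 6 Snail, Twist and Zeb genes was called, and their log2 fold changes lay between -0.53 and 0.17. Without the fold limit, 7 of the 9 members (77.8%) passed the p threshold alone, 4 higher and 3 lower, beside 58.7% of all genes. The groups did not overlap in CPM for 6 members (66.7%) and for 64.2% of all genes. The share without overlap stands near that of all genes, the share passing the p threshold is higher in a set of only 9 genes, and the median absolute log2 fold change was 0.17 for the members and 0.22 for all genes tested. Wells of a group varied little, with a common biological coefficient of variation of 3.74%, and small differences could pass the test.

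**Figure D1:**
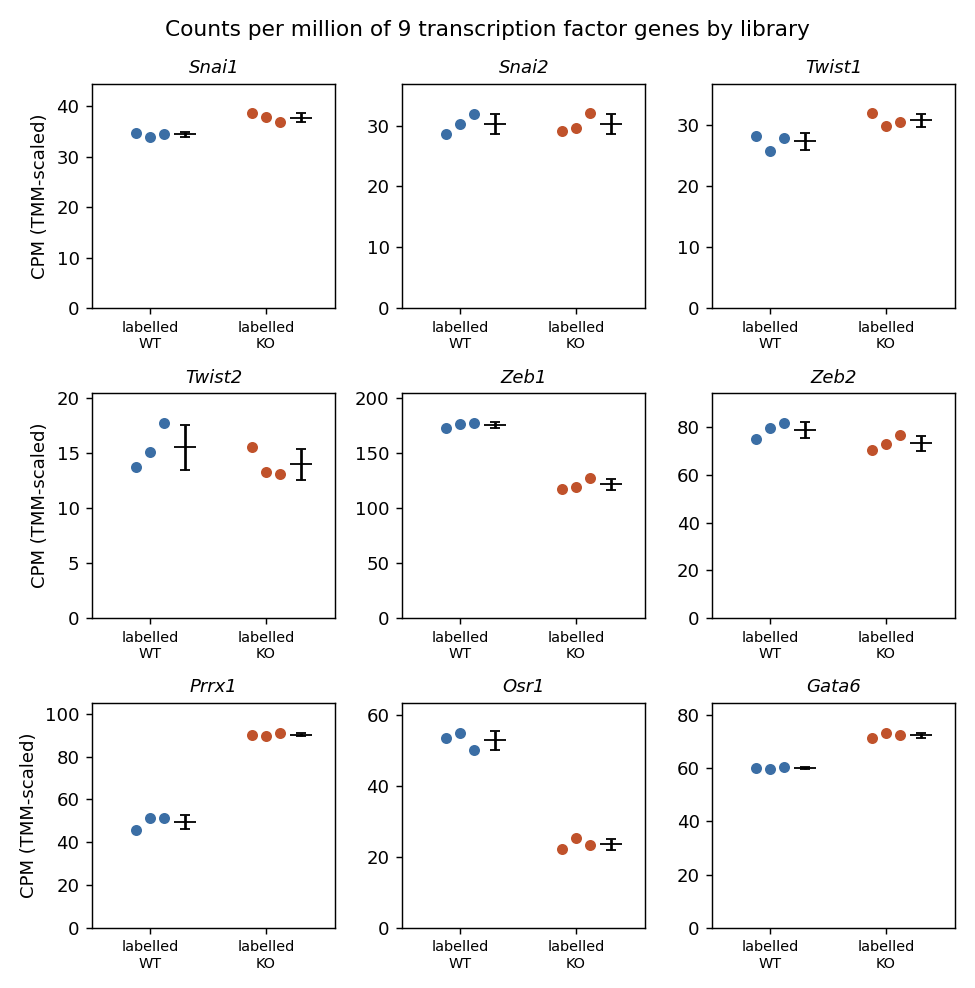
CPM of the 9 genes on linear axes from 0, with a point for each of the 3 libraries of a group and, beside them, a horizontal mark for the mean and a bar for the SD. Prrx1, Osr1, Zeb1 and Gata6 have groups far apart compared with their SD, and Snai2, Twist2 and Zeb2 have overlapping groups.

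Prrx1 (chromosome 1 from 163245119 to 163313710, minus strand, in GENCODE M21 on GRCm38, as all positions here) encodes a paired-related homeobox factor of limb, craniofacial and visceral mesenchyme. It had 1428, 1717 and 1644 counts in WT-labelled libraries and 3184, 3740 and 3012 in KO-labelled ones. Scaled to library size these are 45.6, 51.3 and 51.5 CPM against 89.9, 89.7 and 91.2 CPM. The groups lay wide apart, and the libraries labelled KO differed among themselves by less than those labelled WT. Prrx1 rose 1.83-fold in KO-labelled libraries, a log2 fold change of 0.87 (95% interval 0.77 to 0.96, adjusted p = 4.70e-09), larger in size than that of 87.9% of all genes tested. Its relative Prrx2 was measured at 10.8 ± 0.433 and 15.6 ± 0.197 CPM (SD, n = 3), a rise of 0.53 on the log2 scale (interval 0.40 to 0.66, adjusted p = 6.56e-06) that lies just under the fold limit. It passed that limit only with upper-quartile scaling, at 0.59.

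Osr1 (chromosome 12 from 9570116 to 9581500, plus strand) encodes an odd-skipped zinc finger factor of intermediate mesoderm and of fibroblast progenitors. Its counts were 1676, 1846 and 1598 in WT-labelled libraries and 789, 1051 and 768 in KO-labelled ones, or 53.5, 55.1 and 50.1 CPM against 22.3, 25.2 and 23.3 CPM. Every library labelled KO had less than any library labelled WT. Osr1 was 2.24-fold lower in KO-labelled libraries, with a log2 fold change of -1.16 (interval -1.28 to -1.05, adjusted p = 1.57e-09), and it alone among the members also passed a limit of 2-fold. Osr2, the related factor, was near the limit of detection with 7 to 13 counts in WT-labelled libraries and 12 to 23 in KO-labelled ones. Its log2 fold change of 0.48 had an interval from -0.36 to 1.31 (adjusted p = 0.307), so neither a rise nor a fall of Osr2 was detectable at this depth.

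Zeb1 (chromosome 18 from 5591860 to 5775467, plus strand) had the most counts of all members, with 5415, 5915 and 5668 in WT-labelled libraries and 4164, 4980 and 4203 in KO-labelled ones. Its CPM of 173, 177 and 178 in WT-labelled libraries stood above 118, 120 and 127 in KO-labelled ones, without overlap. Zeb1 fell by 0.53 on the log2 scale (interval -0.61 to -0.46, adjusted p = 4.79e-08), or 1.45-fold, which is next to the fold limit and is the largest change among the Snail, Twist and Zeb genes. Zeb2 (chromosome 2 from 44983632 to 45117395, minus strand) had 75.1, 79.5 and 81.8 CPM in WT-labelled libraries and 70.3, 72.8 and 76.7 CPM in KO-labelled ones, and the groups overlap. Its log2 fold change was -0.11 (interval -0.20 to -0.01, adjusted p = 0.0468). That p passed the threshold under 6 of 14 alternatives and reached 0.330 with upper-quartile scaling. It was also over 0.05 without replicate 2 or 3 labelled WT (0.122 and 0.155) and without replicate 1 or 2 labelled KO (0.149 and 0.107).

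Non-coding RNA genes on the opposite strand overlap both Zeb genes, and the sources used here do not state whether counting used strand. Gm10125, which shares 198 of the 10266 exon bases of Zeb1, fell from 136, 142 and 151 counts to 63, 79 and 67 (log2 fold change -1.22, adjusted p = 1.68e-06). Zeb2os, which shares 653 of the 19942 exon bases of Zeb2, fell from 204, 211 and 172 counts to 147, 164 and 129 (log2 fold change -0.60, adjusted p = 2.17e-04). Both were named after their values were seen. Their part in the counts of Zeb1 and Zeb2 was not tested.

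Snai1 (chromosome 2 from 167538195 to 167542814, plus strand) had 34.8, 34.0 and 34.5 CPM in WT-labelled libraries and 38.7, 37.8 and 36.8 CPM in KO-labelled ones. The groups did not overlap, but they lay close together. The log2 fold change was 0.13 (interval 0.05 to 0.22, adjusted p = 0.0104), a rise of 9.77% that stayed far under the fold limit, and the adjusted p was 0.0516 without replicate 1 labelled KO and 0.0502 from DESeq2. Snai2 (chromosome 16 from 14705852 to 14709385, plus strand) had 28.7, 30.2 and 31.9 CPM in WT-labelled libraries and 29.1, 29.6 and 32.1 CPM in KO-labelled ones, so that the groups overlap fully. Its log2 fold change had an interval from -0.12 to 0.11 (adjusted p = 0.975), which leaves out a change of 1.5-fold in either direction.

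The promoter of Snai1 is shown because it holds the sequence that Snail and Zeb proteins themselves bind. Of the 10 members, 6 have windows in the RefSeq table used here (250 bases before to 50 after a start site, GRCm38.p6), namely Snai1, Twist1, Twist2, Zeb2, Prrx1 and Tcf21, and Snai2, Zeb1, Osr1 and Gata6 have no entry. CACCTG was searched on both strands, and of 9 windows only that of Snai1 holds it, beginning at base -126 from the start site, against 20.2% of all 32851 windows. The window chr2:167537945-167538244, plus strand, reads as follows, with the E-box in capitals.
Snai1 promoter: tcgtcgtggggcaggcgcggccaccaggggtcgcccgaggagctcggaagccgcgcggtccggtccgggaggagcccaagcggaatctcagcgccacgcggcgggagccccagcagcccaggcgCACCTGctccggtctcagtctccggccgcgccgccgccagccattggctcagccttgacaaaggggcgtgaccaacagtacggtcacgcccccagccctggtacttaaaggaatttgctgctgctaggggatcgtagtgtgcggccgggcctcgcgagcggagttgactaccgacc
The GLI binding consensus GACCACCCA, searched in the same way, was in none of the 9 windows and in 0.253% of all windows. Its core CCACCC, which the consensus contains, was in 1 of 4 windows of Zeb2 and in no other member's window, against 31.5% of all windows. The window of Prrx1, the member that rose most, is chr1:163313601-163313900 on the minus strand, holds none of these motifs and is 47.7% G and C where that of Snai1 is 70.0%.
Prrx1 promoter: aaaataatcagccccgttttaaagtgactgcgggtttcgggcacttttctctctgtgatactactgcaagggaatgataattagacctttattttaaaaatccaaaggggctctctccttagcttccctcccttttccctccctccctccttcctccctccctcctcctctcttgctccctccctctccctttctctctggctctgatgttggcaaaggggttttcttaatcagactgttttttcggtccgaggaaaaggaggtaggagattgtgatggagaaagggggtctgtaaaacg

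Twist1 (chromosome 12 from 33957671 to 33959829, plus strand) had 28.2, 25.7 and 27.9 CPM in WT-labelled libraries and 31.9, 29.8 and 30.5 CPM in KO-labelled ones. The lowest library labelled KO stood above the highest labelled WT, and the log2 fold change was 0.17 (interval 0.06 to 0.28, adjusted p = 0.00955). Without replicate 2 labelled WT, the lowest of its group, the adjusted p was 0.0579. Twist2 (chromosome 1 from 91801461 to 91848028, plus strand) had 13.8, 15.1 and 17.8 CPM in WT-labelled libraries and 15.6, 13.2 and 13.1 CPM in KO-labelled ones. The groups overlap, and Twist2 varied most between wells, with a coefficient of variation of 13.1% in WT-labelled libraries where counting error alone gives 4.47%. Its log2 fold change of -0.16 (interval -0.36 to 0.05) did not pass the test, with an adjusted p of 0.174 that became 0.0443 without replicate 1 labelled WT. An antisense gene, Gm29100, covers 46.5% of the exon bases of Twist2 and had 31 to 54 counts in any library. The log2 fold change of Gm29100 was -0.46 (edgeR adjusted p = 0.0689), and it was named after its values were seen. Its part in the counts and levels per length of Twist2 was not tested.

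Gata6 (chromosome 18 from 11052064 to 11085635, plus strand) had 60.1, 59.6 and 60.2 CPM in WT-labelled libraries and 71.4, 73.3 and 72.2 CPM in KO-labelled ones. Replicates differed by less than counting error gives, with a coefficient of variation of 0.610% against 2.27% from counting in WT-labelled libraries. Gata6 rose by 20.6%, a log2 fold change of 0.27 (interval 0.20 to 0.34, adjusted p = 1.21e-05), and it passed the p threshold under all 14 alternatives without reaching 1.5-fold. Among its relatives, Gata2, a factor of blood and endothelial lineages, rose from 6.27 ± 0.304 to 15.3 ± 0.727 CPM, a log2 fold change of 1.29 (interval 1.14 to 1.45, adjusted p = 1.02e-08). Gata3 rose from 11.8 ± 0.810 to 18.4 ± 1.38 CPM (log2 fold change 0.64, interval 0.48 to 0.80, adjusted p = 7.91e-06). Gata4 was measured at 22.2 ± 1.65 and 20.9 ± 1.79 CPM and did not pass the test, with an interval from -0.24 to 0.07 (adjusted p = 0.303). Of 11 relatives listed, 5 had a row and were tested, and Gata2 and Gata3 were those called, both higher, where 11.6% of all genes were called higher.

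**Figure D2:**
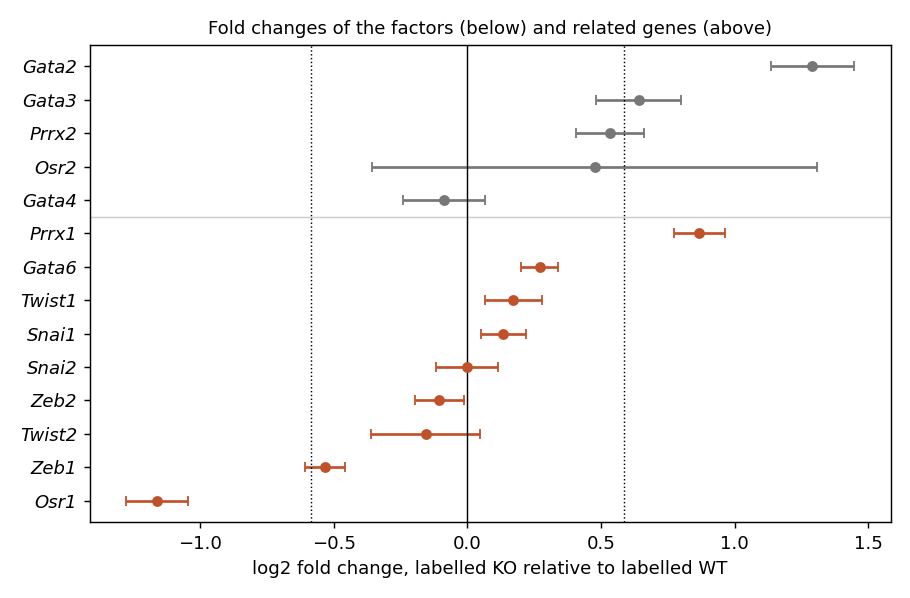
Log2 fold changes (points) with 95% intervals (bars) of the 9 members below the grey line and of 5 related genes above it, the dotted lines marking 1.5-fold. Prrx1 and Osr1 lie beyond the dotted lines with their whole intervals, the interval of Zeb1 crosses its line, and Osr2 has the widest interval.

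To set the genes against each other, CPM were divided by the length in kb of all annotated exons of each gene. In the libraries labelled WT the order of these levels per length was Osr1 (25.6 ± 1.25 CPM per kb, SD, n = 3), Snai1 (21.3 ± 0.252), Zeb1 (17.1 ± 0.246), Twist1 (16.8 ± 0.836), Snai2 (14.97 ± 0.793), Gata6 (9.22 ± 0.0563), Twist2 (4.90 ± 0.642), Prrx1 (4.47 ± 0.304) and Zeb2 (3.95 ± 0.172). Zeb1 and Twist1 did not differ beyond their spread, nor did Twist2 and Prrx1. In the libraries labelled KO, Snai1 led with 23.3 ± 0.581 CPM per kb, followed by Twist1 (18.9 ± 0.669), Snai2 (14.97 ± 0.796), Zeb1 (11.8 ± 0.502), Osr1 (11.4 ± 0.724), Gata6 (11.1 ± 0.147), Prrx1 (8.16 ± 0.0739), Twist2 (4.40 ± 0.436) and Zeb2 (3.67 ± 0.162). Here Zeb1, Osr1 and Gata6 overlapped their neighbours in the order. Osr1 thus went from rank 1 to rank 5 and Prrx1 from rank 8 to rank 7. The order depends on the length used. With the longest transcript, Osr1 went from rank 2 to rank 7, Prrx1 from rank 8 to rank 6 and Gata6 from rank 5 to rank 3. On that scale Zeb1 stood at 30.3 CPM per kb and led the order in WT-labelled libraries, since 10266 exon bases are annotated for it and 5801 in its longest transcript.

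**Figure D3:**
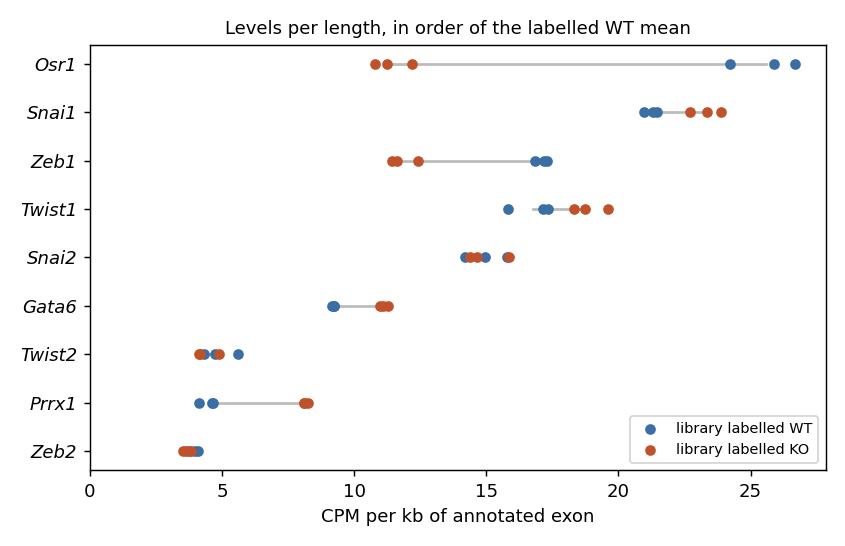
Levels per length (CPM per kb of annotated exon, linear axis from 0) in each library, with grey lines joining the group means. Osr1 moves down from the top of the order, Prrx1 moves up, and Snai1, Snai2, Twist1, Twist2 and Zeb2 stay close to where they were.

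Related factors were also compared within each library, which does not depend on scaling between libraries. The log2 ratio of Zeb2 to Zeb1 counts was -1.20, -1.15 and -1.12 in WT-labelled libraries and -0.74, -0.71 and -0.73 in KO-labelled ones. The groups did not overlap and differed by 0.43 (exact permutation test, two-sided, p = 0.1, the smallest that 3 against 3 libraries can give, and 0.2 after adjustment over the 3 ratios). Per length of all annotated exons, Zeb1 exceeded Zeb2 by 4.33-fold in WT-labelled libraries and by 3.22-fold in KO-labelled ones. These folds depend on the length used. With the longest transcript, Zeb1 and Zeb2 stood at 30.3 and 8.64 CPM per kb in WT-labelled libraries and at 20.9 and 8.03 in KO-labelled ones. The log2 ratio of Twist2 to Twist1 was -0.82 ± 0.198 and -1.14 ± 0.0946 (SD, n = 3 each), with overlap between the groups (exact permutation p = 0.2, adjusted 0.2). For Snai2 to Snai1 it was -0.19 ± 0.0838 and -0.32 ± 0.111, also with overlap (exact permutation p = 0.2, adjusted 0.2). With 2 added to each count in place of 0.5, the Twist ratios no longer overlapped (exact permutation p = 0.1), since the highest ratio labelled KO and the lowest labelled WT were both -1.04. With 3 libraries a group these tests cannot pass 0.05, and they do not show that the ratios were alike.

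**Figure D4:**
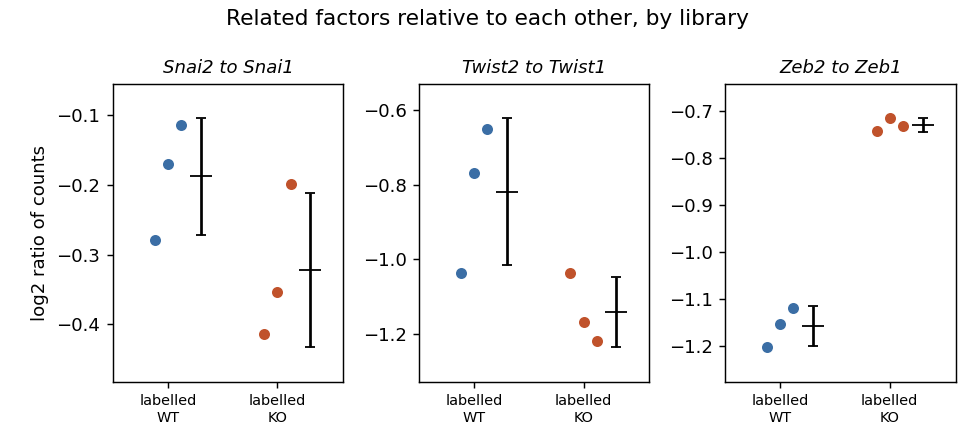
Log2 ratio of the counts of 2 related factors in each library (points), with group means (marks) and SD (bars), each panel on its own axis. The Zeb2 to Zeb1 ratio lies between -1.20 and -1.12 in WT-labelled libraries and between -0.74 and -0.71 in KO-labelled ones, and the other ratios overlap.

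The partners of these factors were counted next. Twist proteins and Tcf21 act as dimers with the E proteins encoded by Tcf3, Tcf4 and Tcf12, Id proteins bind E proteins and keep them from DNA, and Zfpm1 and Zfpm2 encode the FOG cofactors of GATA factors. Of these 9 genes, 4 were called, 3 higher and 1 lower in KO-labelled libraries, beside 11.6% and 6.10% of all genes, with a median log2 fold change of 0.43 where that of all genes was 0.00197. Id2 stood at 111, 142 and 138 counts under the WT label and at 610, 829 and 693 under the KO label, and its log2 fold change was 2.26 (SE 0.10, adjusted p = 9.73e-10). Id4 and Id1 rose by 1.51 and 1.11 on the log2 scale. The remaining inhibitor, Id3, rose by 0.52 (adjusted p = 1.72e-06), under the fold limit. The E protein gene Tcf4 was lower in KO-labelled libraries, from 261 ± 3.57 to 135 ± 1.57 CPM, a log2 fold change of -0.95 (SE 0.03, adjusted p = 2.90e-11). The other E protein genes, Tcf3 and Tcf12, were not lower, with log2 fold changes of 0.10 and 0.06 (edgeR adjusted p = 0.0127 and 0.126).

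Among 12 co-repressor genes through which Snail and Zeb proteins silence their targets, 0 were called by edgeR, DESeq2 or limma, where edgeR called 17.7% of all genes, while 8 passed the p threshold without reaching 1.5-fold, 4 higher and 4 lower, beside 58.7% of all genes. The largest of these changes were those of Rcor1, the CoREST scaffold (log2 fold change -0.42, adjusted p = 7.83e-07), and Ezh2, the histone H3 lysine methyltransferase (0.33, adjusted p = 2.02e-04). Of 9 genes that control the stability of Snail, Twist and Zeb proteins, 1 was called, against 17.7% of all genes. This was the ubiquitin ligase gene Fbxl5, which fell by 0.62 on the log2 scale (SE 0.05, adjusted p = 1.80e-07) and was under the fold limit with upper-quartile scaling. Rcor1 and Ezh2 were named after their values were seen.

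Epithelial genes that Snail and Zeb proteins repress elsewhere were mostly absent from the measured genes: 18 of the 26 listed, among them Epcam, Krt18, Krt19 and Ocln, had no row and were not analysed here. Of 7 tested, 4 were called, all higher in KO-labelled libraries, where 11.6% of all genes were. Cdh1, which encodes E-cadherin, had 10, 14 and 9 counts in WT-labelled libraries and 28, 33 and 19 in KO-labelled ones, or 0.340 ± 0.0703 and 0.719 ± 0.125 CPM. Its log2 fold change was 1.08 (interval 0.48 to 1.68, adjusted p = 0.00450), but it remained under 1 CPM in both groups. The filter on low counts can be passed through the higher group alone. With at least 10 counts required in every library Cdh1 was left out and 3 epithelial genes were called, and with no filter 5 were. Krt7 (2.40), Patj (2.29) and Cdh3 (1.26) had the larger log2 fold changes, and Cdh3, the P-cadherin gene, was abundant, at 80.8 ± 1.13 and 194 ± 0.918 CPM. Jup, the junction gene for plakoglobin and the most abundant of the list in WT-labelled libraries, went the other way, with means of 217 and 161 CPM and a fall of 0.43 on the log2 scale (adjusted p = 2.47e-07), under the fold limit. It was named after its values were seen.

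Of 20 mesenchymal genes tested, 7 were called, 2 higher and 5 lower in KO-labelled libraries, beside 11.6% and 6.10% of all genes, with a median log2 fold change of -0.07. Dcn, which encodes the proteoglycan decorin, had a log2 fold change of -1.55, Col3a1 of -0.94 and the PDGF receptor gene Pdgfra of -0.90, while S100a4 (1.67) and the cadherin gene Cdh11 (1.02) were higher (each with an adjusted p under 0.05). Vim, which encodes the intermediate filament of mesenchymal cells, was at 4285 ± 54.1 CPM in WT-labelled libraries and 3912 ± 128 CPM in KO-labelled ones, a fall of 0.13 on the log2 scale (adjusted p = 0.00176, and 0.0511 with upper-quartile scaling). Col1a1 and Acta2 did not pass the test, with intervals from -0.07 to 0.09 and from -0.07 to 0.08.

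Markers of mesothelium, another mesoderm-derived cell type, differed strongly between the groups. Of 7 listed, 5 had a row and all 4 tested were called, higher in KO-labelled libraries, where 11.6% of all genes were called higher. Krt18 and Muc16 had no row. This list, like the others, was chosen with earlier results of these data known. Msln had 77, 91 and 62 counts in WT-labelled libraries and 5949, 6904 and 5392 in KO-labelled ones (log2 fold change 6.12, adjusted p = 3.75e-15), and Lrrn4 (4.62), Upk3b (1.90) and Wt1 (1.83) were higher too. The summed level of the markers ranged from 21.5 to 24.4 CPM in WT-labelled libraries and from 267 to 268 CPM in KO-labelled ones. The keratin gene Krt8 was at 0 to 2 counts in WT-labelled libraries and 7 to 12 in KO-labelled ones. The part of mesothelial gene expression in the changes of Prrx1, Osr1, Zeb1, Gata6, Krt7 and Cdh3 was not tested.

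**Figure D5:**
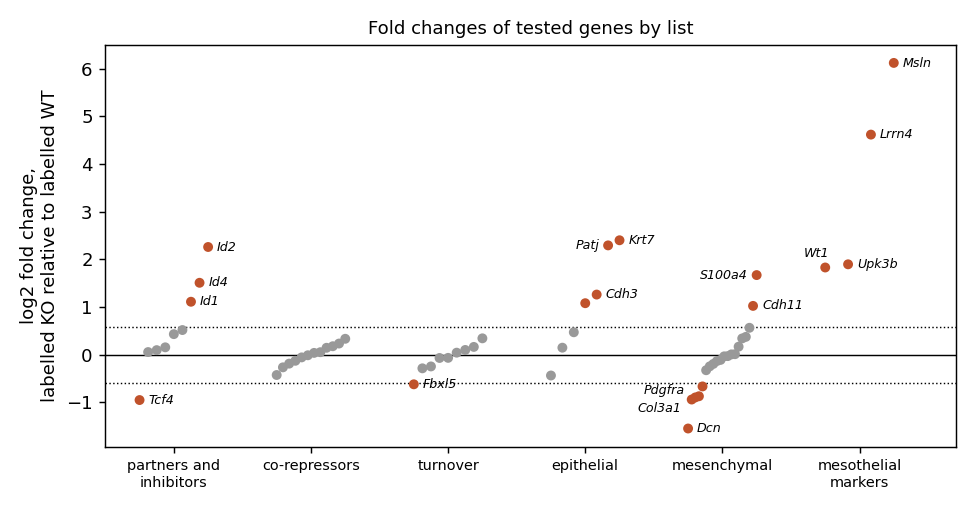
Log2 fold changes of every tested gene of 5 lists and of the mesothelial markers, in rising order within a list, called genes in orange and others in grey, with dotted lines at 1.5-fold. Co-repressor genes all lie between the dotted lines, Id genes and Tcf4 stand apart among the partners, and Msln and Lrrn4 lie highest.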

How the data were processed

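The authors deposited raw counts of reads per gene and a table of log2 CPM made with limma. The submitters' processing notes name STAR 2.7.2b, featureCounts, limma and GRCm38.p6. Libraries were polyadenylated RNA prepared with a NEB kit. The strand setting, and any filter the authors applied to low counts, are not given in the sources used here. Members and gene lists were chosen with earlier results of these data known. Counts were tested with edgeR 4.0.16 (R 4.3.3) with TMM scaling, filterByExpr and the quasi-likelihood F test, and 14289 of 14831 genes were tested. Positions, lengths and overlaps came from GENCODE M21, in which 14822 identifiers were found without their version. Standard errors were taken from fold change and F statistic, and intervals are at 95%. As alternatives, scaling was by RLE, by upper quartile or by total counts alone, with no count filter or at least 10 counts in every library, a fold limit of 2 or none, DESeq2 1.42.0, limma 3.58.1 on counts and on the deposited log2 values, and leaving out each library. The fit was also run on simulated counts in which far fewer genes changed than here, so that run checks the code and not the calls. Named genes were all members, tested relatives, Gli2, Gli3, Cdh1, Vim, up to 3 called genes in each direction from each other list (100 counts or more in each library of the group where the gene is higher), and markers of other cell types over 10 CPM. Id3, Tcf3, Tcf12, Col1a1, Col1a2, Pdgfrb, Acta2, Thy1, Krt8, Wt1 and Notch3 fall outside this rule and were named after their values were seen. The chi-square per degree of freedom between libraries of a group was between 2.50 and 7.74, so that all 6 were kept as separate replicates. The floor for a gene was set at 3 counts in a library, between 0.0720 and 0.0957 CPM.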

Additional observations from a re-analysis of the deposited data

How the results depend on the processing

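Prrx1 and Osr1 were called, and the other 7 members were not, under all 14 alternatives of scaling, filter, test and left-out library, with log2 fold changes between 0.81 and 0.93 for Prrx1 and between -1.22 and -1.11 for Osr1. The fold limit moved the counts of calls most. Without it, calls went to 7 members, 8 partners and inhibitors, 8 co-repressors, 6 turnover genes, 13 mesenchymal genes and 8391 of all genes. At 2-fold they went to 1 member, 1 relative, 0 turnover genes, 3 mesenchymal genes and 1456 of all genes. With upper-quartile scaling, which shifts the median of all genes by 0.06 on the log2 scale, 0 turnover genes were called. The log2 fold change of Snai2 changed sign, without passing the test, with upper-quartile scaling (0.0546), total counts (0.0323) and at least 10 counts in every library (0.00499), and ranged from -0.0433 to 0.0340 with each library left out. The 3 ratios of related factors kept their direction under every alternative. No paired analysis was possible because the labels give the groups no shared replicate numbers. Depth limits Osr2, Cdh1 and Krt8, with at most 33 counts in any library. It also limits Gli1 in the libraries labelled KO.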

Other observations

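Apart from the mesothelial markers, most markers listed for other cell types had no row. None of 7 endothelial markers had a row, and Sox10 of the Schwann list, Ptprc and Adgre1 of the macrophage list and Epcam and Krt19 of the ductal list had none either. Summed levels in the libraries labelled WT and labelled KO ranged over 3.61 to 5.20 and 3.61 to 4.68 CPM for Schwann markers (3 of 6 with a row), 39.5 to 45.5 and 38.4 to 40.1 CPM for macrophage markers (3 of 7, nearly all Lyz2), 7.36 to 8.84 and 13.6 to 15.4 CPM for acinar markers (1 of 9, Cela1), 14.2 to 15.2 and 30.9 to 32.7 CPM for ductal markers (3 of 7, mostly Krt7 in the libraries labelled KO), and 10.1 to 11.2 and 25.4 to 28.7 CPM for pericyte and smooth muscle markers (2 of 7). In the last list, Mcam rose by 2.52 on the log2 scale (edgeR adjusted p = 9.22e-11), and Notch3 was at 7.10 ± 0.167 and 6.81 ± 0.387 CPM (SD, n = 3).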
